A study of Mus musculus with 8 samples.

Results

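Macrophage markers are genes whose transcripts are used to mark macrophages and related myeloid cells. The cells that gave the transcripts in this fat were not tested. The 36 genes examined here were a fixed list of pan-macrophage and myeloid, resident, lipid-associated and activation genes, and 33 of them were measured among 25064 genes or transcribed features. They were compared between Rap1-/- mice, which lack the shelterin protein RAP1 (encoded by Terf2ip), and wild-type (WT) mice, in total RNA of gonadal white fat from 10-week-old females on standard chow, an age chosen to precede the obesity of the knockout. Each of the 4 Rap1-/- and 4 WT mice gave 1 one-colour Agilent array, and both genotypes had the same C57BL6/129SV background (90%:10%). The knockout was constitutive and present in every tissue. It was made by crossing a floxed Rap1 allele with mice carrying an EIIa-cre transgene, which acts in the early embryo, and the Cre transgene was later bred out. Macrophages and fat cells alike therefore lacked RAP1, and no value below separates the effect of the deletion in either cell.

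Fat holds macrophages of several kinds. Resident macrophages lie along vessels and between adipocytes, carry scavenger and lectin receptors such as those encoded by Mrc1, Lyve1 and Timd4, and clear dying cells and iron. In obesity, monocytes are drawn in through the chemokine CCL2 and its receptor, mature around dying adipocytes under the growth factor receptor encoded by Csf1r, and take on a lipid-handling programme marked by Trem2, Gpnmb and Lgals3. Toll-like receptors and CD14 recognise microbial products and turn on NF-κB target genes, whereas interleukin 4 turns on Retnla, Chil3 and Arg1. The transcription factor PU.1, encoded by Spi1, sets up most of these genes.

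Signals are given as log2 of the processed intensity relative to the 75th percentile of the array, so that 0 equals that percentile. They compare arrays for 1 gene and do not rank genes against each other, since probes differ in brightness. A difference is Rap1-/- minus WT, and a gene was called where its limma p, adjusted by Benjamini-Hochberg over all 25064 features, was under 0.05. The arrays were alike in quality. The 75th percentile was 302 to 497 intensity units, 59.7% to 65.2% of spots were well above background, 0 spots were saturated, and RNA integrity numbers were 6.5 to 8.5 per the labels. Each of the 2 slides carried replicates 1 and 2, or 3 and 4, of both genotypes. Rap1-/- arrays always lay at positions 3 and 4 of a slide and WT arrays at 1 and 2, and an effect of position cannot be told apart from genotype.

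The deleted gene was read by 2 probes. With A_52_P381806, 0 of 4 Rap1-/- arrays gave a signal well above background (mean -7.43), whereas 4 of 4 WT arrays did (mean 0.26). In a fit of single probes rather than genes, it differed by -7.69 (limma adjusted p = 1.9e-07). The probe brighter over the 8 arrays together, A_55_P2094079, was the dimmer of the 2 in WT fat. It read 1.01, 0.84, 0.98 and 1.06 in Rap1-/- fat and -1.49, -1.39, -1.27 and -1.48 in WT fat. That was a 5.22-fold higher signal in the knockout (limma adjusted p = 6.63e-05). The place of either probe relative to the deleted part was not given in the sources used here. Through that brighter probe, the only one used for the gene, Terf2ip was the single feature called in the whole table. With that choice, 0.00399% of features were called higher and 0% lower. At an unadjusted p under 0.05, 1.67% of features were higher and 3.31% lower.

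Before the values, promoter sequences of a few members are shown. They come from RefSeq on GRCm38.p6 and are windows of 300 bases that end 50 bases past the start of transcription, 5′ to 3′ on the strand of the gene. The table held 28 promoters of 24 of the 36 members. The core of the PU.1 motif, GAGGAA on either strand, lay in 14 of 28 member promoters (50%), against 28.3% of all 32851 promoters. The AP-1 motif TGANTCA lay in 5 of 28 (17.9%), against 7.81% of all. RAP1 belongs to the complex on the telomere repeat TTAGGG, whose letters lay in 1 of 28 member promoters (3.57%), against 10.6% of all; the same repeat in tandem lay in 0 of 28 and in 4 of the 32851. A match of letters is not a bound site. The following were chosen because Fcgr3 had the smallest unadjusted p among the pan-macrophage genes, Mrc1 carried the most PU.1 cores, and Lgals3 held the telomere repeat. Capitals mark GAGGAA or TTAGGG, read on either strand.
Fcgr3 promoter, chr1:171059345-171059644 (minus strand): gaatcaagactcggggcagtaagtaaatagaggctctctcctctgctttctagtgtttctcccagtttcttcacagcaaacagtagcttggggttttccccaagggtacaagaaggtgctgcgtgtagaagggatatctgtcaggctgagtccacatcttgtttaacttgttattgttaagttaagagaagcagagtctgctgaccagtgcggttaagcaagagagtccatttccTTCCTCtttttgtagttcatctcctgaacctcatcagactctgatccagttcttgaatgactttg
Mrc1 promoter, chr2:14229164-14229463 (plus strand): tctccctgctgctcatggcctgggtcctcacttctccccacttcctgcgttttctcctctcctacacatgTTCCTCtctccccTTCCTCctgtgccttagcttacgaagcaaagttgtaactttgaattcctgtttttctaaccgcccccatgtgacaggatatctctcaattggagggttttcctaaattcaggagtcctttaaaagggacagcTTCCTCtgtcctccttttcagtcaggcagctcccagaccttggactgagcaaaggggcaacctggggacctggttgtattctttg
Lgals3 promoter, chr14:47373610-47373909 (plus strand): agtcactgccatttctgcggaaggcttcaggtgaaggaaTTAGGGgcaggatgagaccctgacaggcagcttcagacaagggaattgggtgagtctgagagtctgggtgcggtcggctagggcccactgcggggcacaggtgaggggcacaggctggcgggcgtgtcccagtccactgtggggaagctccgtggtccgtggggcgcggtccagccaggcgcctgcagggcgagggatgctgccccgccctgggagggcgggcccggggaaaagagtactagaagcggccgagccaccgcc

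The lysozyme genes Lyz1 and Lyz2 encode the enzyme that breaks bacterial cell walls and are near copies of each other. Their promoters are shown because they are so alike, which does not bear on how far array probes tell the transcripts apart. Over 290 aligned bases, 254 were identical (87.6%), and capitals mark the longest run shared without a mismatch, of 86 bases.
Lyz1 promoter, chr10:117292819-117293118 (minus strand): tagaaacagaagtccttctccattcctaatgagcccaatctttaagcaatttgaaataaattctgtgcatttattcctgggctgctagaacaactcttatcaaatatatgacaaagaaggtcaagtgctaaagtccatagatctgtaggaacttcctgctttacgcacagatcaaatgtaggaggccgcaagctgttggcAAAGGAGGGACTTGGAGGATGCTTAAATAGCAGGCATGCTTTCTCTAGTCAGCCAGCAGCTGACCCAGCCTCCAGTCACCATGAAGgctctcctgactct
Lyz2 promoter, chr10:117282223-117282522 (minus strand): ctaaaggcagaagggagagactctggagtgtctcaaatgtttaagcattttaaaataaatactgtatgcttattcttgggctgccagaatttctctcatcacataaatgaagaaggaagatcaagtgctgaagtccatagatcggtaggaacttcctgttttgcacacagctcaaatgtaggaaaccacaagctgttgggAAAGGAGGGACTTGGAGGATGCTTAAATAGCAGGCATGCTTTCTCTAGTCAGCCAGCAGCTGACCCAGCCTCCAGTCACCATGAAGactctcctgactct

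Of the 33 members measured, 25 had a higher mean in Rap1-/- fat and 8 a lower mean, against 40.1% of all features higher. The median difference of the 33 was 0.11 on the log2 scale, against -0.04 over all features. None of the 33 was called at the adjusted threshold, and their smallest adjusted p was 0.874. At an unadjusted p under 0.05, 1 of 33 was higher (Timd4) and 0 were lower, against 4.98% of all features in either direction. The groups overlapped for every one of the 33, whereas 0.898% of all features had all Rap1-/- arrays above all WT arrays and 2.36% had them all below (3.26% in either direction). The shares of members under the unadjusted p and without overlap are this near the background and are no result about the members. The count of higher means and the small positive median are descriptions. The members' 95% intervals were wide, with a widest one of -1.61 to 0.90 for Gpnmb, and an interval that holds 0 does not show that a gene was alike in the genotypes. In bulk tissue, fewer cells of a type and less RNA per cell cannot be told apart.

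**Figure D1:**
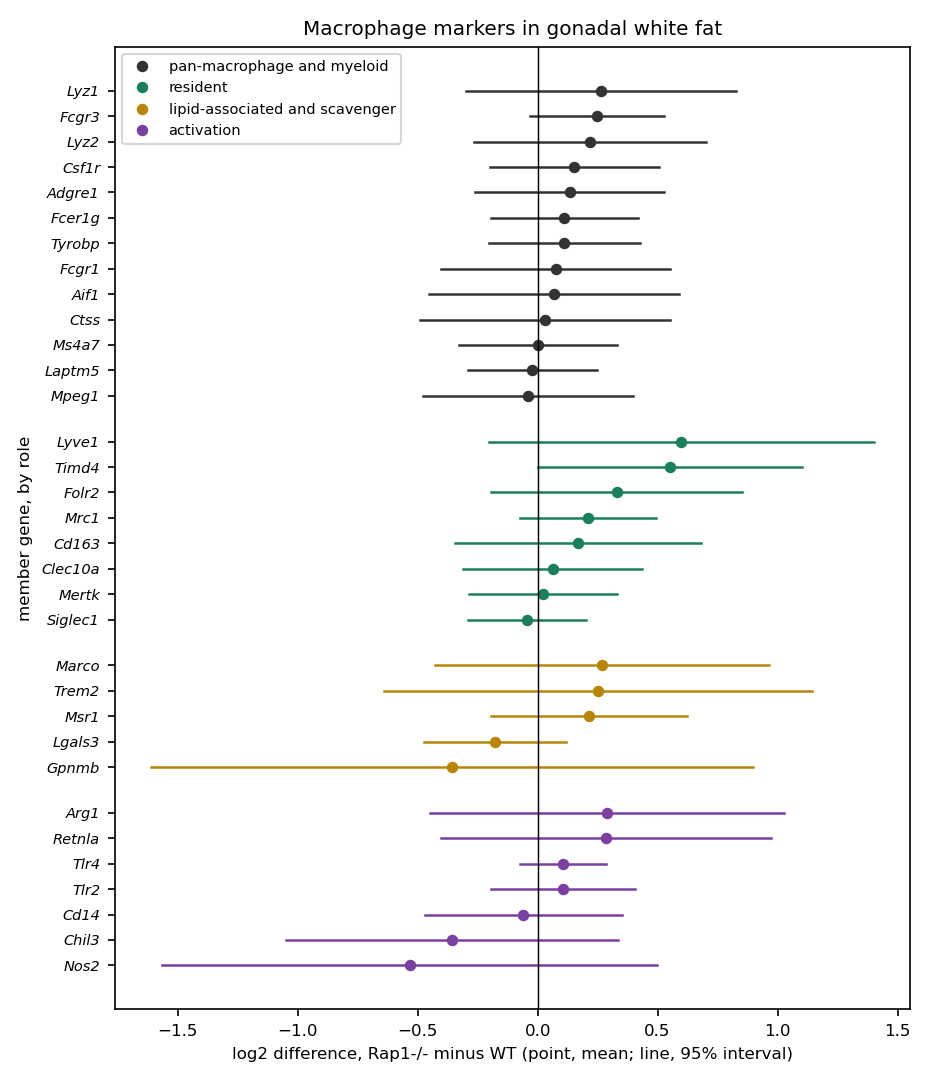
Log2 difference, Rap1-/- minus WT, of the 33 members measured, with the member genes on the vertical axis grouped by role; points are means and lines 95% intervals from limma (n = 4 arrays per genotype). Most points lie right of 0, between -0.53 for Nos2 and 0.60 for Lyve1, and every line but that of Timd4 crosses 0.

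The 3 members without a test were as follows. Cd68, the lysosomal glycoprotein of macrophages, and Clec7a, the β-glucan receptor Dectin-1, matched no probe by accession, and no value is given for them. Spi1 had 1 probe, well above background on 2 Rap1-/- arrays and 1 WT array, which missed the minimum of 4 arrays; without that minimum its difference was 0.38.

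Among the pan-macrophage and myeloid genes, 11 of the 13 measured had a higher mean in Rap1-/- fat, with a median difference of 0.11 and differences from -0.04 to 0.26. None was called. Adgre1, which encodes the most widely used surface antigen of mouse macrophages, read 1.46, 1.13, 1.05 and 0.81 in Rap1-/- fat and 0.85, 1.37, 0.85 and 0.84 in WT fat. Replicate 1 of Rap1-/- and replicate 2 of WT were the highest arrays, and the groups overlapped. The difference was 0.13 ± 0.17 (SE, limma adjusted p = 0.914), a 1.10-fold ratio, and a dimmer probe of the gene gave 0.19.

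The immunoglobulin receptor Fcgr3 had signals of 0.20, -0.10, -0.03 and -0.11 in Rap1-/- fat, against -0.48, -0.06, -0.35 and -0.15 in WT fat. All 4 Rap1-/- arrays were above the WT mean and 2 were above every WT array, with WT replicate 1 the lowest of the 8. Its difference was 0.25 ± 0.12, a 1.19-fold ratio (limma adjusted p = 0.874). Fcgr1, the high-affinity receptor of the same family, differed by 0.07, and Fcer1g and Tyrobp, the adaptor chains that carry the signal of such receptors, by 0.11 each.

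Lyz1 read 4.65, 4.67, 4.30 and 4.13 in Rap1-/- fat and 4.24, 4.80, 3.64 and 4.02 in WT fat. For Lyz2 the signals were 1.87, 1.66, 1.50 and 1.23 in Rap1-/- fat and 1.42, 1.83, 0.93 and 1.20 in WT fat. WT replicate 2 was high and WT replicate 3 low for both, and the groups overlapped. The differences were 0.26 ± 0.25 for Lyz1 and 0.22 ± 0.21 for Lyz2 (limma adjusted p = 0.897 for each). Near copies such as these can share signal between their probes, and how far the 2 probes tell the transcripts apart was not tested.

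Csf1r, the receptor for the growth factor that keeps macrophages alive, read 5.52, 4.94, 5.19 and 4.95 in Rap1-/- fat and 4.91, 5.25, 4.97 and 4.87 in WT fat. The high arrays were again replicate 1 of Rap1-/- and replicate 2 of WT. The difference was 0.15 ± 0.15 on the brightest probe (limma adjusted p = 0.899), 0.28 on the second and -0.01 on the third, so the 3 probes gave no single direction. Aif1, the actin-binding protein IBA1, differed by 0.07, the lysosomal protease gene Ctss by 0.03 and the membrane-spanning Ms4a7 by 0.00. The 2 genes with lower means were Laptm5, a lysosomal membrane protein of leukocytes (-0.02), and Mpeg1, the pore-forming perforin-2 (-0.04). Both signs turned when arrays were scaled to their median instead, to 0.05 and 0.03, and the second probes gave 0.09 for Laptm5 and -0.28 for Mpeg1.

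**Figure D2:**
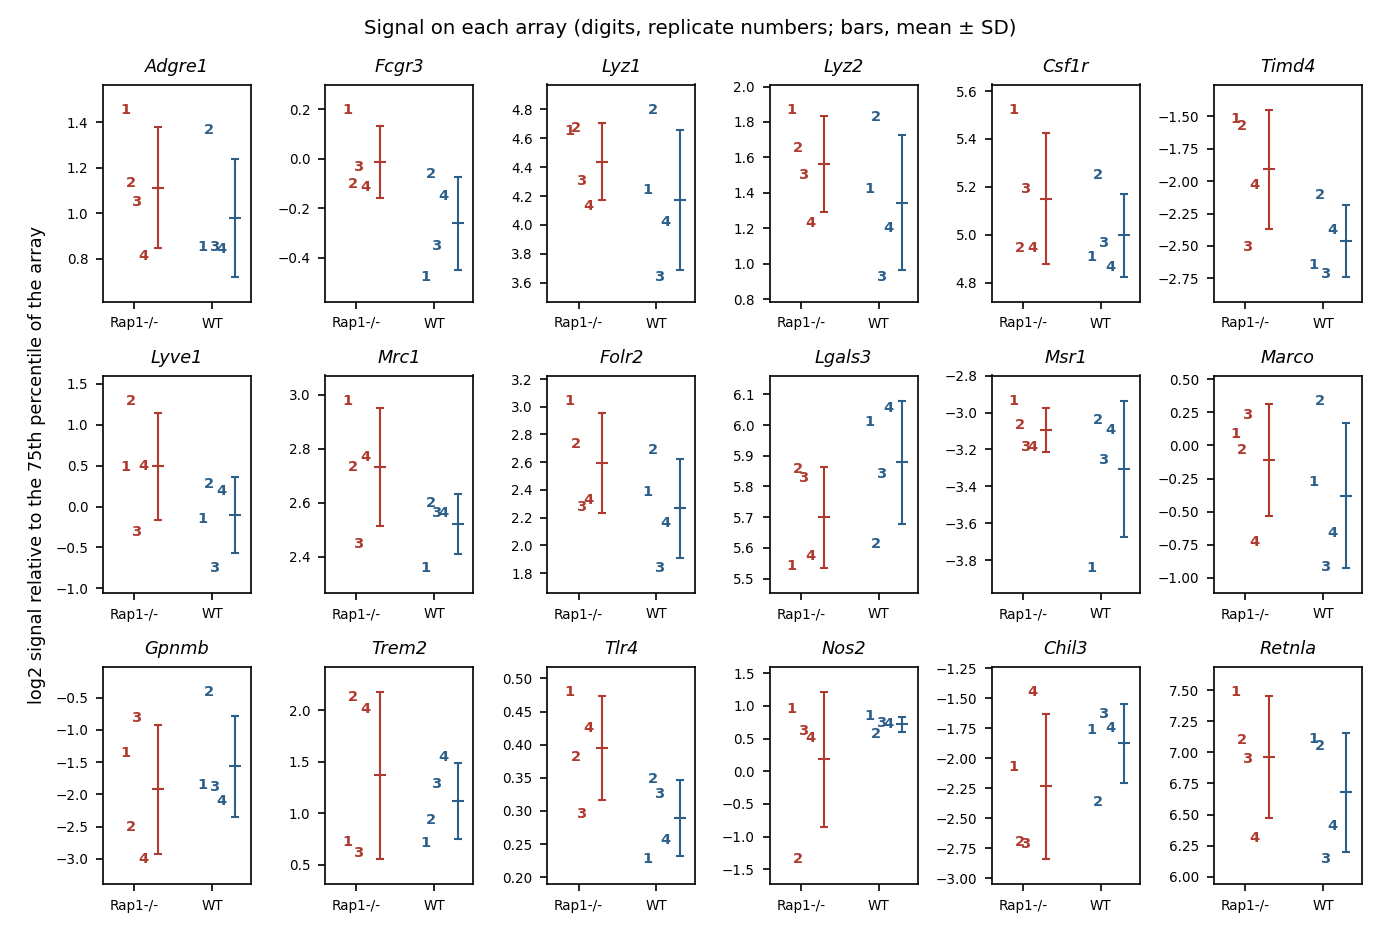
Log2 signal relative to the 75th percentile of the array (vertical axis, own scale per gene) of 18 members on each array; digits are replicate numbers, Rap1-/- in red and WT in blue, and bars give mean ± SD (n = 4 each). The groups overlap in every panel, and Nos2 shows Rap1-/- replicate 2 at -1.34, apart from the other 7 arrays at 0.51 to 0.96.

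Of the resident macrophage genes, 7 of 8 had a higher mean in Rap1-/- fat, with a median difference of 0.19 and differences from -0.04 to 0.60. Timd4, which encodes the phosphatidylserine receptor TIM4 of long-lived resident macrophages, read -1.52, -1.58, -2.51 and -2.03 in Rap1-/- fat, against -2.64, -2.11, -2.72 and -2.38 in WT fat. Replicates 1, 2 and 4 of Rap1-/- were above every WT array, whereas replicate 3 lay among them. The difference of 0.55 ± 0.24 was a 1.47-fold ratio (limma adjusted p = 0.874, with an unadjusted p just under 0.05). Over the 21 alternatives it lay between 0.27 after normexp correction and 0.83 within slide 1, the unadjusted p was under 0.05 in 10 of them, and the adjusted p was 0.534 to 1.00.

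Lyve1, the hyaluronan receptor found on perivascular macrophages and on lymphatic endothelium, had signals of 0.49, 1.29, -0.31 and 0.49 in Rap1-/- fat and -0.15, 0.27, -0.75 and 0.19 in WT fat. Again 3 Rap1-/- arrays were above all WT arrays and replicate 3 was low, as it was in WT. The difference was 0.60 ± 0.35, a 1.52-fold ratio (limma adjusted p = 0.874). It was 0.33 without Rap1-/- replicate 2 and 0.39 without WT replicate 3. Because lymphatic vessels carry the same receptor, this value cannot be assigned to macrophages alone.

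Mrc1, the mannose receptor CD206, read 2.98, 2.73, 2.45 and 2.77 in Rap1-/- fat and 2.36, 2.60, 2.56 and 2.56 in WT fat. The Rap1-/- arrays lay above all WT arrays except for replicate 3, and WT replicate 1 was the lowest. Its difference was 0.21 ± 0.12 (limma adjusted p = 0.874), with 0.37 within slide 1 and 0.05 within slide 2. Folr2, the folate receptor β of resident macrophages, read 3.04, 2.73, 2.28 and 2.33 in Rap1-/- fat, against 2.38, 2.69, 1.84 and 2.16 in WT fat. All 4 Rap1-/- arrays exceeded the WT mean but 2 lay inside the WT range, and the difference was 0.33 ± 0.23 (limma adjusted p = 0.878). The remaining resident genes had smaller differences. Cd163, the haemoglobin scavenger receptor, differed by 0.17, the lectin gene Clec10a by 0.06, the engulfment kinase gene Mertk by 0.02 and the sialic acid receptor gene Siglec1 by -0.04, a sign that turned to 0.03 with median scaling.

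The 5 lipid-associated and scavenger genes had no common direction. Msr1, Trem2 and Marco had higher means in Rap1-/- fat and Lgals3 and Gpnmb lower ones, with a median of 0.21 that was 0.02 after normexp background correction. Lgals3, the galectin of phagocytes, read 5.54, 5.86, 5.83 and 5.58 in Rap1-/- fat and 6.01, 5.61, 5.84 and 6.06 in WT fat. WT replicate 2 lay among the low Rap1-/- arrays, and the difference was -0.18 ± 0.13 (limma adjusted p = 0.878), which became 0.04 when arrays were scaled to the E1A spike-in controls.

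Trem2 encodes the lipid receptor at the head of the lipid-associated programme, and Gpnmb a glycoprotein of lipid-laden macrophages. Trem2 read 0.72, 2.13, 0.61 and 2.01 in Rap1-/- fat, against 0.71, 0.94, 1.28 and 1.55 in WT fat. Gpnmb read -1.37, -2.50, -0.82 and -3.00 in Rap1-/- fat, against -1.86, -0.41, -1.89 and -2.10 in WT fat. In Rap1-/- fat the arrays that were high for Trem2, replicates 2 and 4, were the low ones for Gpnmb, and these were the arrays at position 4 of their slides, with replicates 1 and 3 at position 3. The part of position in this split was not tested. The differences were 0.25 ± 0.39 for Trem2 and -0.36 ± 0.55 for Gpnmb (limma adjusted p = 0.930 for each), the widest standard error among the 33 being that of Gpnmb. Trem2 was added to the genes given by array after its values were seen.

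The scavenger receptor gene Msr1 read -2.93, -3.07, -3.19 and -3.19 in Rap1-/- fat and -3.84, -3.04, -3.26 and -3.09 in WT fat. WT replicate 1 alone was low. The difference was 0.21 ± 0.18 (limma adjusted p = 0.886), 0.04 without that array and -0.01 within slide 2. A dimmer probe gave 0.47, but it was well above background on 4 Rap1-/- arrays and only 2 WT arrays, so its WT values lie near the background. Marco, a scavenger receptor for bacteria, read 0.09, -0.04, 0.23 and -0.73 in Rap1-/- fat and -0.28, 0.34, -0.92 and -0.66 in WT fat. Each genotype had high and low arrays, and the difference was 0.27 ± 0.30 (limma adjusted p = 0.906).

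Of the 7 activation genes measured, 4 had a higher and 3 a lower mean in Rap1-/- fat, with a median of 0.11 that was -0.00 after normexp correction. Tlr4, the receptor for bacterial lipopolysaccharide, varied least of the 33 members. It read 0.48, 0.38, 0.29 and 0.43 in Rap1-/- fat and 0.23, 0.35, 0.33 and 0.26 in WT fat. Replicates 1, 2 and 4 of Rap1-/- were above all WT arrays, and the difference was 0.11 ± 0.08 (limma adjusted p = 0.878). Its relative Tlr2, which senses bacterial lipoproteins, also differed by 0.11, and the co-receptor gene Cd14 by -0.06, which turned to 0.01 with median scaling.

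Nos2, the inducible nitric oxide synthase of classical activation, read 0.96, -1.34, 0.61 and 0.51 in Rap1-/- fat, against 0.84, 0.57, 0.74 and 0.72 in WT fat. Replicate 2 of Rap1-/- alone was low. The difference of -0.53 ± 0.45 (limma adjusted p = 0.886) was -0.03 without that array. Chil3, the chitinase-like lectin YM1, had signals of -2.07, -2.70, -2.72 and -1.44 in Rap1-/- fat and -1.76, -2.36, -1.63 and -1.75 in WT fat. Replicates 2 and 3 of Rap1-/- were the lowest of the 8 arrays and replicate 4 the highest, with a difference of -0.36 ± 0.30 (limma adjusted p = 0.886). Retnla, the secreted FIZZ1 protein, read 7.49, 7.10, 6.95 and 6.31 in Rap1-/- fat and 7.11, 7.05, 6.14 and 6.41 in WT fat. The groups overlapped, with Rap1-/- replicate 1 the highest array and WT replicate 3 the lowest, and the difference was 0.28 ± 0.30 (limma adjusted p = 0.904). Arg1, the arginase that competes with nitric oxide synthase for arginine, was dim, being well above background on 4 Rap1-/- and 3 WT arrays, and differed by 0.29. Interleukin 4 targets therefore lay on both sides of 0.

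Much of the spread lay between arrays of the same genotype. With each gene centred over the 8 arrays, the mean of the 33 members was 0.25, 0.06, -0.05 and -0.06 on the Rap1-/- arrays and -0.15, 0.18, -0.13 and -0.10 on the WT arrays. Replicate 1 of Rap1-/- was the highest array for 14 of the 33 members and above the gene's own mean for 28. WT replicate 2 was highest for 6 and above the mean for 26, whereas WT replicate 1 was lowest for 11 and WT replicate 3 for 8. Leaving out replicate 1 of Rap1-/- brought the median of the 33 to 0.04 with 21 of 33 higher, leaving out WT replicate 1 brought it to 0.06 with 21 higher, and leaving out WT replicate 2 brought it to 0.18 with 29 higher. Within slide 1 the median was 0.14 with 25 higher, and within slide 2 it was 0.08 with 19 higher. Within slide 2 alone, the pan-macrophage and myeloid median was -0.05, and the lipid-associated and scavenger median was -0.01 within either slide. The resident median was 0.23 within slide 1 and 0.24 within slide 2, but 0.10 with 5 of 8 higher without Rap1-/- replicate 1 and 0.13 with 6 of 8 higher without WT replicate 3. The pan-macrophage and myeloid median was 0.02 with 9 of 13 higher without Rap1-/- replicate 1, and 0.01 with 7 of 13 higher without WT replicate 1. Without WT replicate 4 the activation median was 0.02.

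**Figure D3:**
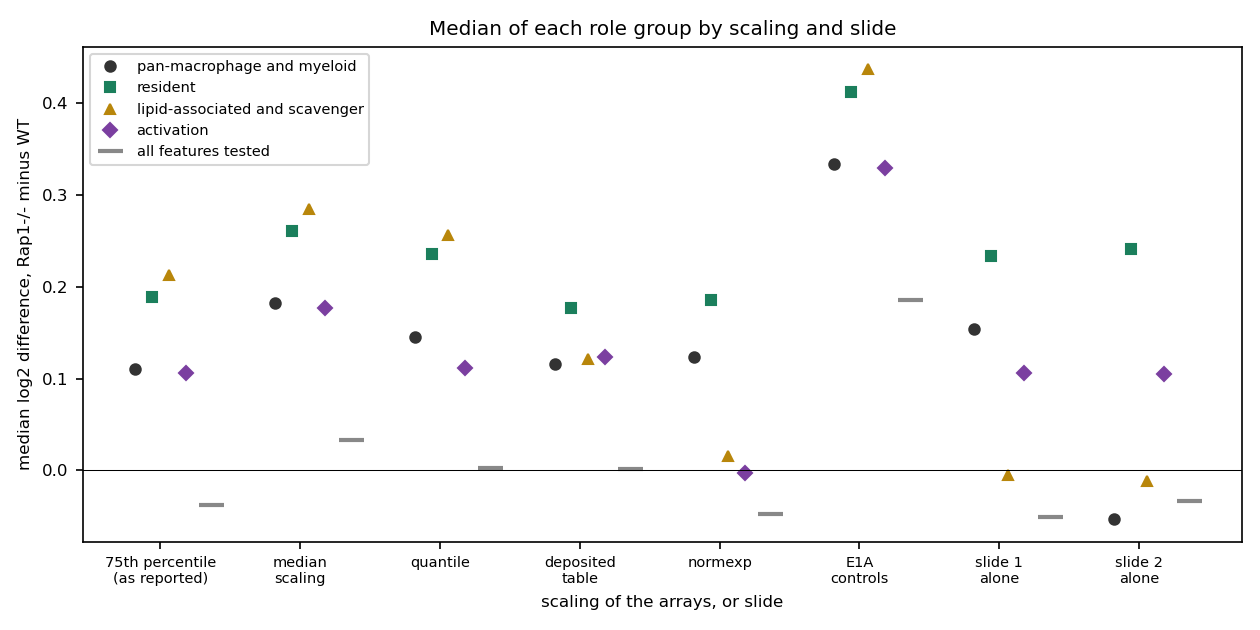
Median log2 difference, Rap1-/- minus WT (vertical axis), of each role group and of all features tested under 6 ways of scaling the arrays and within each slide (horizontal axis). In the settings plotted the resident median lies between 0.18 and 0.41, whereas the lipid-associated and scavenger median drops to -0.01 within either slide and the all-feature median shifts to 0.19 with E1A controls.

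Other genes of macrophage biology were examined as fixed lists. Of the phagocyte effector and leukocyte surface genes, which include complement C1q, phagocyte oxidase and integrin genes, 27 of 28 had a higher mean in Rap1-/- fat, with a median of 0.16, against 40.1% and -0.04 over all features, and 0 were called. Without Rap1-/- replicate 1, 19 of 28 were higher with a median of 0.09, without WT replicate 1 the median was also 0.09, and within slide 2, 18 of 28 were higher with a median of 0.03. F13a1, the coagulation factor XIII subunit made by tissue macrophages, read 4.25, 4.28, 3.75 and 3.99 in Rap1-/- fat and 3.67, 3.81, 3.30 and 3.84 in WT fat. Replicate 3 was the lowest array in both genotypes, and the difference was 0.41 ± 0.16 (limma adjusted p = 0.874). C1qa read 3.10, 2.91, 2.62 and 2.77 in Rap1-/- fat and 2.30, 2.73, 2.54 and 2.69 in WT fat, with WT replicate 1 lowest, and differed by 0.28 ± 0.14 (limma adjusted p = 0.874) and by 0.08 within slide 2. On the arrays the list averaged -0.11 to 0.21 in Rap1-/- fat and -0.23 to 0.07 in WT fat.

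The lipid-associated programme was a separate list of lysosomal and lipid-handling genes that lipid-laden macrophages turn on. Of 17 measured, 4 had a higher and 13 a lower mean in Rap1-/- fat, against 40.1% of all features higher. The median was -0.14, against -0.04 over all features, and 0 genes were called. That median was -0.04 with quantile normalisation, -0.05 without Rap1-/- replicate 4 and -0.07 without WT replicate 2. It turned to 0.08 with E1A scaling, where the median of all features was 0.19. The count higher was 6 of 17 with normexp correction (36.1% of all features), 7 with median scaling (58.5%) and 14 with E1A scaling (85.5%). Cd63, a tetraspanin of late endosomes, read 6.88, 6.95, 7.02 and 6.85 in Rap1-/- fat and 7.24, 7.17, 7.22 and 6.93 in WT fat. WT replicate 4 lay among the Rap1-/- arrays, and the difference was -0.22 ± 0.10 (limma adjusted p = 0.874), which was -0.07 with quantile normalisation and 0.01 with E1A scaling. Nr1h3, the oxysterol receptor LXRα, differed by -0.16. Adipocytes also express many genes of this list, Nr1h3 and Fabp5 among them.

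For monocyte recruitment and growth factors, 10 of 13 measured genes had a higher mean in Rap1-/- fat, with a median of 0.21, and 0 were called. Within slide 2, 7 of 13 were higher with a median of 0.02, and the median was 0.09 without Rap1-/- replicate 1 and 0.12 without WT replicate 1. The chemokine gene Ccl2 read 0.34, 0.29, -0.00 and -0.15 in Rap1-/- fat and -0.54, -0.68, -0.65 and 0.07 in WT fat. WT replicate 4 alone lay among the Rap1-/- arrays, and the difference was 0.57 ± 0.19, a 1.48-fold ratio (limma adjusted p = 0.874), with 0.93 within slide 1 and 0.21 within slide 2. Csf2ra, a receptor chain for the growth factor GM-CSF, differed by 0.25.

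Of the Toll-like receptor and NF-κB signalling genes, 11 of 20 were higher with a median of 0.01, against 40.1% of all features. The count followed the scaling, and 0 were called. It was 16 of 20 with quantile normalisation and 15 in the deposited table, each against 50.6% of all features higher. With median scaling it was 18 (58.5% of all features) and with E1A scaling 20 (85.5%). Ptgs2, the inducible cyclooxygenase COX-2, was dim, being well above background on 4 Rap1-/- arrays but on only 1 WT array, and read -4.22, -4.21, -3.34 and -4.21 in Rap1-/- fat and -5.95, -5.55, -6.67 and -4.32 in WT fat. The gene passed the filter through its Rap1-/- arrays, and most WT readings were not well above background. Its fitted difference therefore depended on how background was handled, at 1.63 as processed, 0.16 after normexp correction and 0.29 in the deposited table (limma adjusted p = 0.874 as processed). Tlr3, the receptor for double-stranded RNA, differed by 0.49. Il1b and Il6, the cytokines at the end of this pathway, were below the minimum of arrays well above background.

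Among the myeloid transcription factors, 5 of 13 were higher, with a median of -0.03 that turned to 0.04 with median scaling and 0 called. Cebpa, which also drives adipocyte differentiation, read 4.91, 4.88, 5.17 and 5.02 in Rap1-/- fat and 5.41, 5.40, 5.11 and 5.24 in WT fat. Replicate 3 of both genotypes lay in the range of the other group, and the difference was -0.30 ± 0.11 (limma adjusted p = 0.874), with -0.08 within slide 2. Bhlhe41, a basic helix-loop-helix repressor, differed by -0.71 ± 0.36 (limma adjusted p = 0.874).

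Markers of other cells varied between the same arrays. In each list below the level is the mean over its genes, each centred over the 8 arrays, and 0 genes were called. Adipocyte genes were lower for 9 of 10 markers with a median of -0.24, at -0.17 to 0.02 on the Rap1-/- arrays and 0.03 to 0.15 on the WT arrays. With quantile normalisation 3 of 10 were higher with a median of -0.03, in the deposited values 3 of 10 with -0.04, and with E1A scaling 5 of 10 with -0.02. The lipid droplet gene Cidec (-0.31) and the fatty acid carrier gene Fabp4 (-0.27) had every Rap1-/- array below every WT array. The same held for 2.36% of all features, and both genes had a limma adjusted p of 0.874. These differences were -0.14 and -0.06 with quantile normalisation, -0.13 and -0.05 in the deposited table and -0.08 and -0.05 with E1A scaling. Mesothelial genes, from the sheet of cells on the fat surface, were higher for 8 of 8 markers with a median of 0.63, at 0.14 to 0.43 in Rap1-/- fat and -1.06 to 0.25 in WT fat. That median was 0.37 without WT replicate 3, 0.19 within slide 1 and 1.05 within slide 2. Krt8 differed by 0.79 and Upk1b by 0.64, again without overlap and with a limma adjusted p of 0.874. Of all features, 0.898% had every Rap1-/- array above every WT array. Fibroblast and preadipocyte genes were higher for 7 of 8 markers with a median of 0.28, at 0.07 to 0.20 in Rap1-/- fat and -0.51 to 0.29 in WT fat, with Dpp4 at 0.51 and Col1a1 at 0.49. Without WT replicate 3 this median was 0.16, and without WT replicate 1 it was 0.18. WT replicate 2, the WT array highest for the macrophage members, was also the WT array highest for mesothelial and fibroblast genes. WT replicate 3 was the lowest of all arrays for both of those lists, whereas WT replicate 1 was the lowest for the macrophage members (-0.15). Among Rap1-/- arrays, replicates 3 and 4 were lowest for the macrophage members (-0.05 and -0.06) but highest for mesothelial genes (0.43 and 0.40). For fibroblast genes they were the lowest Rap1-/- arrays (0.13 and 0.07). The part of these cells in the macrophage values was not tested.

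**Figure D4:**
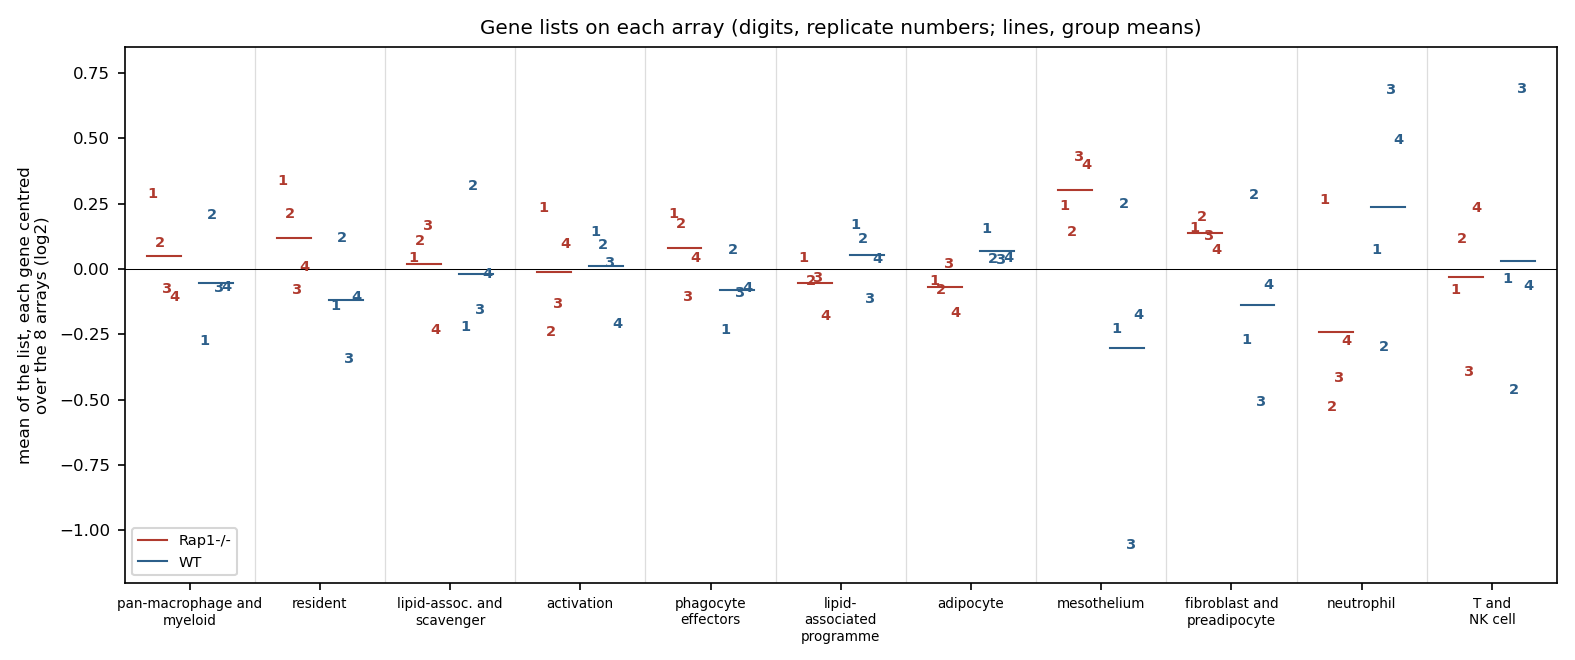
Mean of each gene list on each array after centring every gene over the 8 arrays (vertical axis, log2); digits are replicate numbers, lines group means, Rap1-/- in red and WT in blue, and lists are placed along the horizontal axis. Rap1-/- replicate 1 and WT replicate 2 stand high in the pan-macrophage list (0.29 and 0.21), and WT replicate 3 stands low in the mesothelial list (-1.06).

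Other leukocytes that share some members with macrophages gave no common direction. The 6 neutrophil genes measured were all lower with a median of -0.27, at -0.53 to 0.26 in Rap1-/- fat and -0.30 to 0.69 in WT fat, with S100a9 at -1.47 and Elane at -0.25, and Ly6g matched no probe while Ngp was below the minimum. Dendritic cell genes were higher for 1 of 5 markers with a median of -0.11, with Flt3 at -0.21 and Cd209a at 0.30, and Xcr1 was below the minimum. T and NK cell genes had a median of -0.05 (0.30 within slide 1 and -0.45 within slide 2), with Cd4 at -0.37 and Cd3e at -0.30, B cell genes 0.05, with Cd79a at -0.33 and Ms4a1 at 0.46, mast cell genes -0.03, with Cma1 at 0.18 and Tpsb2 at -0.06, and eosinophil genes 0.05, with Ccr3 at -0.33 and Prg2 at 0.13. The eosinophil markers Epx and Siglecf were below the minimum. Endothelial genes had a median of -0.04, with Kdr at -0.34 and Tie1 at -0.04, the 2 erythroid genes -0.33, with Alas2 at -0.40, and the 2 ovary genes 0.07, with Inha at 0.28. The skeletal muscle genes were low on Rap1-/- replicates 1 and 4 (-4.23 and -5.06, against -0.76 to 3.41 on the other 6 arrays), with Myh4 differing by -5.60 and Ckm by -2.28. These probes were well above background on 2 and 3 Rap1-/- arrays and on 4 WT arrays each. Replicate 1 was the highest and replicate 4 the lowest of the Rap1-/- arrays for the macrophage members, and the part of muscle in these values was not tested.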

How the data were processed

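The authors hybridised total RNA of each mouse's gonadal white fat to its own Agilent array in one colour. Per the file headers, spots were quantified with Feature Extraction 10.7.3.1, whereas the study's methods name another version, on an mm9 design. Deposited scanner output gives processed and median spot signals as intensity, not normalised between arrays, beside other columns of 0 or 1 that mark spots above background or outlying. The authors' deposited table of log2 values was also used. Its normalisation is not given in the sources used here; normexp (offset 50) with quantile normalisation matched it on every array. The submitters' notes name limma without a version.

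From log2 of the processed signal, each array's 75th percentile over non-control spots was subtracted. Replicate spots were averaged, and a probe was kept if 4 or more of 8 arrays had it well above background (33982 of 55668). Probes were named by RefSeq accession through a GRCm38.p6 table (26050 of 55668, 46.8%), with the brightest probe per gene, which left 25064 features, 14924 of them with a symbol. Genotypes were compared with limma 3.58.1 (lmFit, eBayes) in R 4.3.3, two-sided, with Benjamini-Hochberg adjustment over all features and a threshold of 0.05, and the fit was tested on simulated data. Intervals are at 95%. Mice were separate animals, and their number limits the precision.

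Members, lists and tests were chosen with earlier results of these data known. Values by array were given for Adgre1 and up to 4 members per role group with the smallest unadjusted p, and of each other list up to 2 genes were named; the remaining genes named in the text, Trem2 by array and genes below the minimum were chosen after their values were seen. Alternatives covered background correction (normexp on median signals, since no mean signal was held in the files), scaling, filter, probe choice, slide, replicate block, variance model and leaving out each array. Promoters and motifs were read with biopython 1.88 in Python 3.11.15, and figures drawn with matplotlib 3.10.9.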

Additional observations from a re-analysis of the deposited data

Results flagged for a closer look

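In groups of 4 arrays, an array was singled out where its gap to the nearest other array exceeded 0.829 of the group's range (Dixon's 95% limit). Chance alone gives about 1 such group in 20, and 6 of the 76 groups looked at were singled out, all of them in WT. WT replicate 2 was high for Adgre1 (1.37), Gpnmb (-0.41), Tlr2 (-0.26) and the mean of the 33 macrophage members (0.18 after centring each gene). WT replicate 1 was low for Mrc1 (2.36), and WT replicate 4 was low for Arg1 (-4.68).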

How the results depend on the processing

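None of the macrophage members was called under any of the 21 alternatives, and the median difference of the 33 stayed above 0, between 0.043 and 0.33. The lowest was without Rap1-/- replicate 1 and the highest with E1A spike-in scaling, which moved the median of all features to 0.19; the medians of the pan-macrophage, resident, lipid-associated and activation genes were then 0.33, 0.41, 0.44 and 0.33. The lipid-associated and scavenger median was -0.0057 within slide 1 and -0.012 within slide 2. It was -0.0038 without Rap1-/- replicate 2 and up to 0.19 without other arrays. Features called in the whole table numbered 2 with normexp correction, 2 in the deposited table, 2 with a trended and robust variance, 0 within slide 1 and 0 within slide 2, against 1 as reported.

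In single members, 14 of 33 kept their sign throughout (Adgre1, Csf1r, Lyz1, Lyz2, Fcgr3, Mrc1, Timd4, Lyve1, Folr2, Tlr2, Tlr4, Retnla, Chil3 and Nos2), while 19 turned at least once, in 59 of 692 values. A slide block, a replicate block and another variance model leave every difference unchanged, so those values among the 692 could not turn. With normexp correction the turned members were Fcgr1 (-0.0064), Laptm5 (0.025) and Arg1 (-0.0031). Median scaling turned Mpeg1 (0.033), Laptm5 (0.048), Siglec1 (0.027) and Cd14 (0.012), and E1A scaling Mpeg1 (0.19), Laptm5 (0.20), Siglec1 (0.18), Lgals3 (0.045) and Cd14 (0.16). The deposited table turned Laptm5 (0.00045) and Ms4a7 (-0.0056), and averaging the probes of a gene Laptm5 (0.032). Within slide 1 the turned signs were those of Mpeg1 (0.11), Laptm5 (0.051), Cd163 (-0.082), Mertk (-0.16), Siglec1 (0.11) and Marco (-0.0057). Within slide 2 they were Fcgr1 (-0.30), Fcer1g (-0.15), Tyrobp (-0.053), Ctss (-0.078), Aif1 (-0.48), Ms4a7 (-0.018), Trem2 (-0.10), Gpnmb (0.085), Msr1 (-0.012) and Cd14 (0.16). As each array was left out, the difference spanned -0.078 to 0.22 for Ctss, -0.074 to 0.12 for Ms4a7, -0.057 to 0.11 for Mertk, -0.047 to 0.18 for Clec10a, -0.099 to 0.21 for Aif1, -0.0038 to 0.50 for Trem2, -0.17 to 0.070 for Mpeg1, -0.082 to 0.041 for Laptm5, -0.72 to 0.030 for Gpnmb, -0.086 to 0.22 for Fcgr1, -0.22 to 0.013 for Cd14 and -0.10 to 0.0067 for Siglec1. The causes were not tested.

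Same-numbered arrays of the genotypes did not deviate together (r = -0.22, -0.13, -0.13 and -0.16). Arrays of unlike number gave r from -0.35 to 0.37. Such correlations over all features cannot show whether the mice were paired. With the replicate number as a block, 1 feature and 0 members were called, and the member with the smallest p was Lyve1 (limma adjusted p = 0.875). With 4 arrays a group, the number of arrays limits every value, and dim probes such as that of Arg1 lie near the background.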
